A study of Homo sapiens with 4 samples.

Results

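The 49 genes described here are a list of androgen-regulated genes of prostate cells, and TRIM24 and TRIM28 binding was examined around each of them. They were taken by name out of 20163 protein-coding genes of the GENCODE annotation of GRCh37 (hg19), and all 49 were found there. Binding was measured by ChIP-seq, in which chromatin is crosslinked, pulled down with an antibody and sequenced, in LNCaP cells, an androgen-sensitive line derived from a prostate cancer metastasis. TRIM24 was pulled down through an HA tag in LNCaP cells stably expressing HA-TRIM24, so its values come from a tagged protein added to the cells, and TRIM28 was pulled down with an antibody to the protein itself. The labels give LNCaP for the TRIM28 samples, while the study's own text can also be read as using the HA-TRIM24 cells. All cells spent 3 days in medium with 5% charcoal-stripped serum, which is low in androgen, and then received ethanol, the solvent, or 10 nM R1881, a synthetic androgen, for 16 h. The comparison of R1881 with ethanol asks where binding depends on androgen, and that of TRIM24 with TRIM28 asks how far both proteins occupy the same chromatin.

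There was 1 sample for each of the 4 conditions, so no difference between treatments had a replicate check and no p-value is given. The intervals below are 95% intervals from single libraries and hold no spread between cultures. Those of tag counts and ratios cover counting error only. Those of shares treat the genes or sites as independent draws, although neighbouring genes can share a site. The libraries held 11606880 (TRIM24, ethanol), 12884097 (TRIM24, R1881), 25145171 (TRIM28, ethanol) and 14231181 tags (TRIM28, R1881), where a tag is a mapped read. The authors' peak lists held 5232, 9363, 58201 and 34574 sites in the same order, each 155 to 165 bp wide. Site strength is the deposited normalized tag count, the tags in a site scaled to 10000000 tags in the library. The tag threshold in the file headers was 9 tags in each library except TRIM28 with ethanol, where it was 12, which is 4.77 normalized tags in that deepest library and 6.32 to 7.75 in the others. The deposited normalized count is not bound by it: the weakest listed sites had 6.0 (TRIM24, ethanol), 5.4 (TRIM24, R1881), 4.0 (TRIM28, ethanol) and 5.6 normalized tags (TRIM28, R1881). A gene with no listed site can therefore still have had tags too few to be listed. Strengths of TRIM24 and TRIM28 came from different antibodies and are not set against each other as levels.

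Androgen response elements are DNA sites made of a pair of inverted half-sites, found mostly in enhancers far from gene starts and often beside forkhead sites that FOXA1 opens. Androgen turns on genes for prostate secretions, lipid and sugar metabolism, transporters and kinases. TRIM24 is a coactivator that reads histone tails through a PHD finger and a bromodomain, and TRIM28 (KAP1) is a scaffold best known as the corepressor of KRAB zinc finger proteins. RNA was not measured in these samples, so the genome-wide shares given here include genes that LNCaP cells may not express.

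With R1881, 3 of the 91 TRIM24 sites near these genes held an androgen response element match, written in the authors' motif table as a 16-base consensus and accepted here with at most 1 mismatch on either strand within 200 bp around the site centre. These 3 sequences are shown because they are the TRIM24 sites near these genes that hold this element. All lie in introns, in hg19, and are given on the plus strand with the match in capitals. The TNFAIP8 site lies inside the annotated gene but 84.9 kb upstream of its canonical start. The sites are at chr7:87932886-87933042 in STEAP4, chr2:168943499-168943655 in STK39 and chr5:118606761-118606917 in TNFAIP8.
STEAP4: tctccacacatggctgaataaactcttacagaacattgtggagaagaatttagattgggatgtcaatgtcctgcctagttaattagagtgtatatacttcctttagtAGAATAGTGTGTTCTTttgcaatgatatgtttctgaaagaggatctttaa
STK39: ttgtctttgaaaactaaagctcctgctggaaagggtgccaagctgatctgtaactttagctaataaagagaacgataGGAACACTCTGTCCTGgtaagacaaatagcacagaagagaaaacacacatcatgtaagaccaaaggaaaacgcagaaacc
TNFAIP8: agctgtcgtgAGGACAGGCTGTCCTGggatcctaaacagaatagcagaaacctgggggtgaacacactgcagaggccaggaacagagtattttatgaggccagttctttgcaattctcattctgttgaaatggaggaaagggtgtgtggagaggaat
The STEAP4 match has 1 mismatch to the consensus and the other two have none. The 3 sites carried 11.6, 9.3 and 7.8 normalized tags with R1881, and none of them overlapped a TRIM24 site with ethanol.

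Of the TRIM24 sites near the 49 genes with R1881, the strongest lay in an intron of FKBP5 at chr6:35690352-35690508. Its sequence is shown because it is the strongest of them. It had 21.7 normalized tags, and the strongest with ethanol, near ELL2, had 22.4. FKBP5 encodes a co-chaperone and is widely used as a marker of the androgen response. In capitals is the half-site AGAACA, searched on both strands.
FKBP5: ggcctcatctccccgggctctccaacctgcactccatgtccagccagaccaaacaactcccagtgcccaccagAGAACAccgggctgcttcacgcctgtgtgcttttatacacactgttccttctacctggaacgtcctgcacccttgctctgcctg
The best alignment of this site to the 16-base element had 3 mismatches. Half-sites were frequent in both groups of sites with R1881: 16 of the 91 TRIM24 sites near the 49 genes with R1881 held one (17.6%, Wilson interval 11.1 to 26.7), beside 14.0% of all TRIM24 sites of the same width in that list. With ethanol 3 of 26 held one (11.5%, 4.0 to 29.0), beside 7.12% of all TRIM24 sites. The full element was found in 3.30% of the TRIM24 sites near these genes with R1881 (interval 1.13 to 9.25) and in 1.19% of all TRIM24 sites in the list, and in 0 of 26 with ethanol, which allows up to 11.5% when a count of 0 is taken to allow 3 counts. Among TRIM28 sites near the 49 genes it was in 1.05% of 382 with ethanol and 1.98% of 253 with R1881, beside 0.311% and 0.647% of all TRIM28 sites. Forkhead matches were searched in the same window with a 10-base consensus and no mismatch allowed. Such a match was in 0 of the 91 TRIM24 sites near these genes with R1881, which allows a share of up to 3.30% by the same rule for a count of 0. It was in 1.02% of all sites in that list. With 1 mismatch allowed, 11.0% of the 91 sites and 10.8% of that list held one. Near the 49 genes, full-element matches and forkhead matches without a mismatch numbered 0 to 5 per list. These counts are too small for the difference from the whole list to be read.

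Most of the 49 genes gained a TRIM24 site when R1881 was given. A site within 2 kb of any annotated transcript start, called the promoter here, was found for 7 of 49 genes with ethanol (14.3%, Wilson interval 7.10 to 26.7) and for 21 with R1881 (42.9%, 30.0 to 56.7). Over all protein-coding genes the same shares were 10.6% and 18.4%. Counting the promoter and the rest of the gene, the number rose from 8 (16.3%, 8.51 to 29.0) to 33 (67.3%, 53.4 to 78.8), while the genome-wide share went from 14.6% to 25.3%. Within 50 kb either side of the gene, 16 genes (32.7%, 21.2 to 46.6) had a TRIM24 site with ethanol and 40 (81.6%, 68.6 to 90.0) with R1881, against 33.4% and 50.4% of all genes. With ethanol the 49 genes were thus near the genome-wide share in all 3 windows, and with R1881 they were above it.

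**Figure D1:**
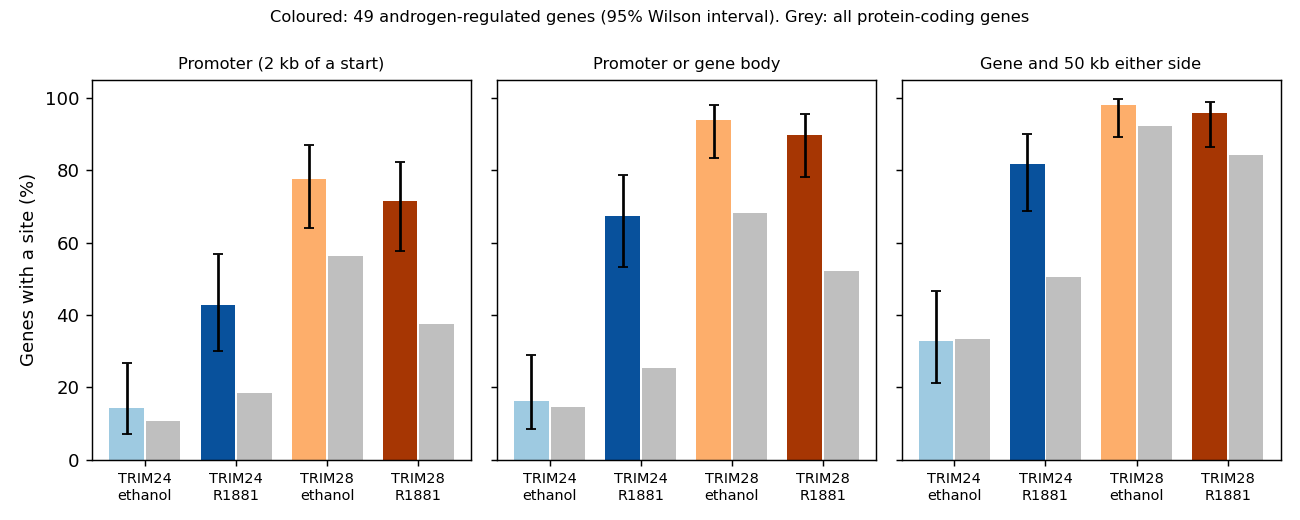
Share of genes with a site (y axis, %) in each of the 4 peak lists (x axis) at the promoter, in the promoter or gene body, and within 50 kb of the gene. Coloured bars are the 49 androgen-regulated genes with 95% Wilson intervals and grey bars are all 20163 protein-coding genes, and the blue bars show the step from 8 to 33 genes with a TRIM24 site in the promoter or body while TRIM28 was high with both treatments.

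Gene size moves with these counts. The 49 genes had a median length of 66.8 kb and a median of 8.0 annotated starts, and all protein-coding genes had 27.2 kb and 5.0. Per length, TRIM24 had 1.64 sites per Mb inside the 49 genes with ethanol and 1.77 inside all protein-coding genes, and with R1881 the densities were 10.4 and 3.73 sites per Mb. The ratio of these densities was therefore 0.924 with ethanol and 2.78 with R1881. For TRIM28 the same ratio was 1.47 with ethanol and 1.61 with R1881. Sites per Mb are not free of gene length where sites gather at starts. Of the TRIM24 sites within 50 kb of any protein-coding gene, 49.9% with ethanol and 48.2% with R1881 were at promoters. When only the start of the canonical transcript of each gene was used, 3 of 49 genes (6.12%) had a TRIM24 promoter site with ethanol and 13 (26.5%, 16.2 to 40.3) with R1881, beside 8.78% and 15.5% of all genes. Several of the promoter sites named below thus belong to alternative starts.

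TRIM28 was in the promoter or body of most of these genes with both treatments. Its promoter sites were found at 38 of 49 genes with ethanol (77.6%, 64.1 to 87.0) and at 35 with R1881 (71.4%, 57.6 to 82.2), against 56.3% and 37.4% of all genes. Among sites of at least 8 normalized tags the promoter counts were 20 and 16 of 49, and those for the promoter or body 28 and 29. The shares of all genes at that cut-off are not given, so these counts cannot be set against a genome-wide share. With all listed sites, TRIM28 was in the promoter or body of 46 and 44 genes, against 68.3% and 52.1%. Within 50 kb it was at 48 and 47, against 92.2% and 84.1%. At canonical starts alone the counts were 31 and 23 of 49, against 49.8% and 30.7%.

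By treatment, 28 of the 49 genes had a TRIM24 site in the promoter or body with R1881 only, 5 with both treatments and 3 with ethanol only. The shares of all genes in those classes were 16.2%, 9.08% and 5.49%. The 5 with both treatments were ELK4, HOMER2, ABHD2, ANKH and IQGAP2, and the 3 with ethanol only were SPDEF, CCND3 and NDRG1. In terms of sites, 26 distinct TRIM24 sites lay within 50 kb of the 49 genes with ethanol and 91 with R1881, a ratio of 3.5, while the ratio over the whole lists was 1.81. Of the 91, 83 overlapped no TRIM24 site with ethanol (91.2%, against 74.1% of the whole list), and of the 26, 18 overlapped none with R1881 (69.2%, against 53.2%). Counting sites gene by gene, 32 of the 49 genes had more TRIM24 sites with R1881, 2 had fewer and 15 had the same number. The same count over all protein-coding genes is not given, and the whole list was also longer with R1881. Among sites of at least 8 normalized tags, above the header threshold of every list, there were 65 sites with R1881 and 24 with ethanol. At that cut-off 27 genes had more TRIM24 sites with R1881, 7 had fewer and 15 had the same number.

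The place of TRIM24 relative to the genes also differed between treatments. With ethanol, 8 of the 26 sites were at promoters, 3 elsewhere in a gene and 15 outside, and with R1881 these were 24, 40 and 27 of 91. TRIM24 sites in a gene but away from its promoters thus went from 11.5% to 44.0% of those near these genes. Over all genes this class made up 26.5% and 30.9% of the TRIM24 sites within 50 kb. The ethanol share near these genes rests on 3 sites, and no interval is given for it. Counted whether at a promoter or not, 9 TRIM24 sites lay inside these genes with ethanol and 57 with R1881. The sites themselves were of ordinary strength: the median was 9.9 normalized tags with ethanol (range 7.8 to 22.4) and 9.3 with R1881 (range 6.2 to 21.7), and the medians of the whole lists were 10.3 and 9.3.

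**Figure D2:**
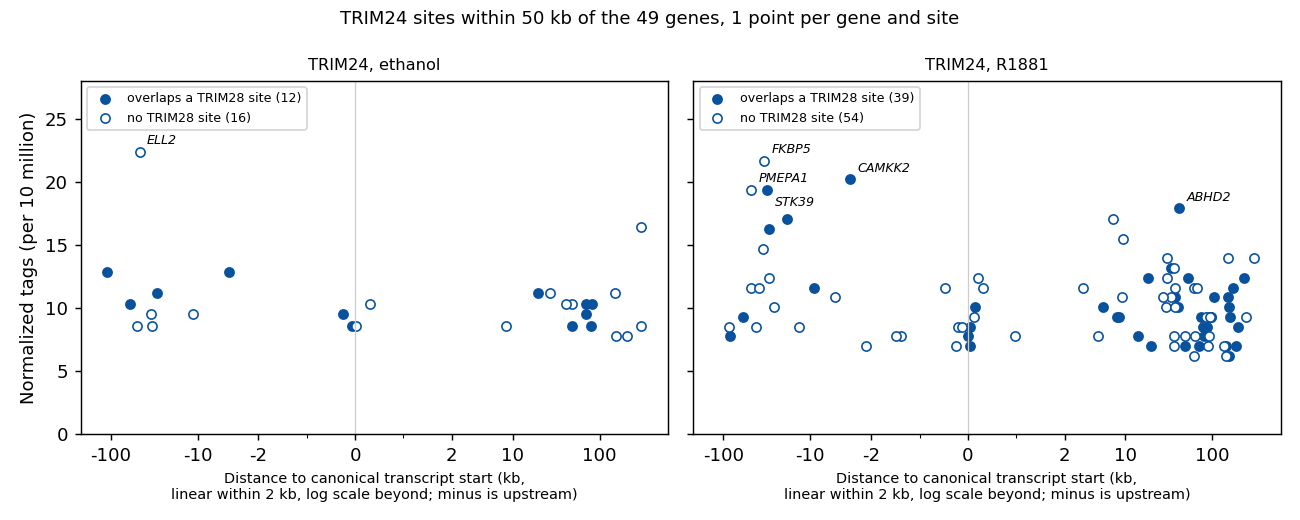
TRIM24 sites within 50 kb of the 49 genes, with ethanol (left) and R1881 (right): distance from the start of the gene's canonical transcript (x axis, kb, linear within 2 kb and logarithmic beyond) against normalized tags per 10000000 (y axis), 1 point for each gene and site. Filled points overlap a TRIM28 site of the same treatment, and the right panel holds 93 points against 28 on the left, most of them more than 2 kb from the canonical start.

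TRIM28 moved the other way in site number. There were 382 TRIM28 sites within 50 kb of the 49 genes with ethanol and 253 with R1881 (ratio 0.662), and 39 genes had fewer sites with R1881, 8 had more and 2 the same number. Over the whole TRIM28 lists the ratio was 0.592, and the same count over all protein-coding genes is not given. The ethanol library was the deeper one and its list went down to weaker sites. Among sites of at least 8 normalized tags the order turned, with 101 sites with ethanol and 114 with R1881, and 21 genes with more sites and 19 with fewer. The direction for TRIM28 therefore depended on the cut-off and is not read as a change.

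**Figure D3:**
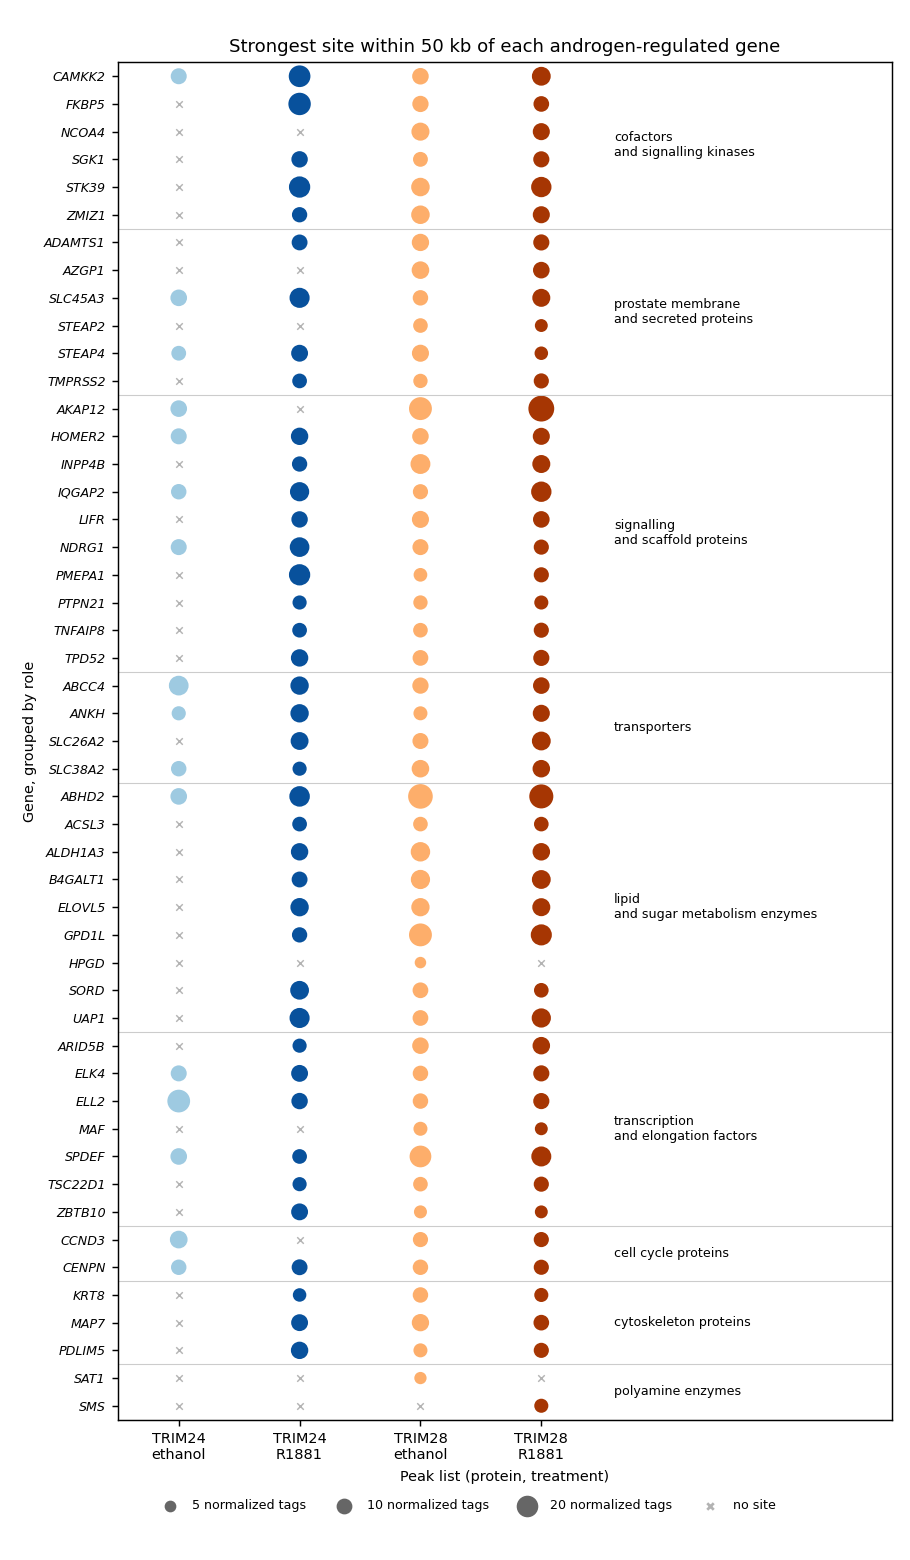
The strongest site within 50 kb of each of the 49 genes (y axis, grouped by role) in the 4 peak lists (x axis). Point area is proportional to the normalized tag count and a cross means no listed site, and the first column holds 33 crosses, the second 9, the third 1 and the fourth 2.

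Among the cofactors and signalling kinases (6 genes), none had a TRIM24 site in the promoter or body with ethanol and 4 did with R1881. Over all genes the shares were 14.6% and 25.3%, and the same shares stand beside each role group below. Whether a group of 2 to 10 genes differs from them was not tested. FKBP5 had no TRIM24 site within 50 kb with ethanol and 2 with R1881, the intron site of 21.7 normalized tags printed above (28 tags, Poisson interval 14.4 to 31.4) and a site of 11.6 at an alternative promoter 39.1 kb upstream of the canonical start. Only 8.96% of all TRIM24 sites with R1881 were as strong as the first. Neither overlapped a TRIM28 site, although TRIM28 had 9 sites around FKBP5 with ethanol and 7 with R1881, of which 3 were at promoters each time. CAMKK2, a calcium/calmodulin-dependent kinase that activates AMPK, had a TRIM24 site of 20.2 normalized tags with R1881 (26 tags, 13.2 to 29.6) at chr12:121737922-121738078, 1889 bp upstream of its nearest start and 3.49 kb upstream of the canonical one, and none there with ethanol. A TRIM28 site overlapped it with both treatments, at 7.6 normalized tags with ethanol and 12.6 with R1881, a ratio of 1.67 whose interval of 0.828 to 3.37 includes 1. The ethanol site fell just outside the 2 kb limit, so its absence from the promoter count is a matter of that limit.

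STK39, a kinase that controls cation-chloride cotransporters, had no TRIM24 site with ethanol and 5 with R1881. The strongest was 31.1 kb upstream at 19.4 normalized tags (12.6 to 28.6), over TRIM28 sites of 5.2 with ethanol and 9.8 with R1881. At the intron site that holds the response element, TRIM24 went from no site to 9.3 normalized tags while TRIM28 went from 5.6 to 16.9, a ratio of 3.03 (1.5 to 6.33). This was the only TRIM24 site of the 3 with a response element at which TRIM28 was listed with both treatments. ZMIZ1, a PIAS-like coactivator, had 3 intronic TRIM24 sites with R1881 (7.0 to 9.3 normalized tags) and none with ethanol. SGK1, a steroid-induced kinase, had 1 TRIM24 site with R1881, of 10.9 normalized tags, downstream of the gene, and NCOA4, a nuclear receptor coactivator and ferritin receptor, had no TRIM24 site with either treatment but 7 and 4 TRIM28 sites.

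Of the 6 prostate membrane and secreted proteins, none had a TRIM24 site in the promoter or body with ethanol and 4 did with R1881. TMPRSS2 is the membrane serine protease whose promoter is fused to ERG in many prostate cancers. It had 1 TRIM24 site, in an intron at chr21:42893667-42893823, of 8.5 normalized tags with R1881 (11 tags, 4.26 to 15.3), and none with ethanol. The site lies inside the annotated gene but 13.7 kb upstream of the canonical start. TRIM28 had 8 sites around TMPRSS2 with ethanol and 6 with R1881, none of them overlapping that site. One with ethanol, of 5.6 normalized tags at chr21:42893501-42893665, ended directly before it, so its lack of overlap is a matter of the matching rule. SLC45A3, the prostate membrane protein prostein, had 4 TRIM24 sites within 50 kb with each treatment, and only the site at the start of ELK4, its neighbour, was shared (8.6 with ethanol and 7.0 with R1881). With ethanol all 4 lay outside the gene (8.6 to 11.2 normalized tags), and 2 of these were at the promoter of ELK4. With R1881 there was a site of 11.6 normalized tags 308 bp inside its start, at chr1:205649251-205649407, and one of 17.1 (10.7 to 25.9) 18.6 kb upstream, over TRIM28 sites of 8.4 with both treatments.

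The metalloreductases STEAP4 and STEAP2 differed. STEAP4 had its TRIM24 site with the response element with R1881 only, 3.25 kb inside the canonical start, and no TRIM28 site overlapped it. With ethanol STEAP4 had 1 TRIM24 site, of 8.6 normalized tags, outside the gene. STEAP2 had no TRIM24 site within 50 kb with either treatment, and 11 TRIM28 sites with ethanol and 2 with R1881. ADAMTS1, a secreted metalloprotease, had no listed promoter site of either protein with ethanol, and with R1881 it had 2 TRIM24 promoter sites (10.1 and 7.8 normalized tags) and 2 TRIM28 promoter sites (9.8 and 7.7). AZGP1, a secreted zinc-binding glycoprotein, had no TRIM24 site and 9 and 3 TRIM28 sites.

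The 4 transporters all had a TRIM24 promoter site with R1881, and 1 of them, ANKH, with ethanol, beside 18.4% and 10.6% of all genes. ABCC4, an efflux pump for nucleotides and drugs, had 5 TRIM24 sites in its introns with R1881, of 9.3 to 13.2 normalized tags, and a promoter site of 8.5. None of these 6 was listed with ethanol. A seventh site, outside the gene, was listed with both treatments at 16.4 with ethanol and 14.0 with R1881 (ratio 0.853, 0.422 to 1.72). ANKH, a pyrophosphate transport protein, had a site of 7.8 with ethanol and 10.1 with R1881 at an alternative start 155 kb downstream of the canonical one, and 3 intronic sites with R1881 only, the strongest of 14.0. SLC26A2, a sulfate transporter, had 4 TRIM24 sites with R1881 (7.8 to 13.2) and none with ethanol. SLC38A2, an amino acid transporter, had a site of 7.8 at its start with R1881 and one of 9.5, 11.1 kb upstream, with ethanol.

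For the lipid and sugar metabolism enzymes (9 genes), TRIM24 was in the promoter or body of 1 with ethanol and 7 with R1881. ABHD2, a lipase, had the most TRIM24 sites of the 49 genes with R1881, 8, and 3 with ethanol. Its intron site at chr15:89673055-89673211 had 10.3 normalized tags with ethanol and 17.9 with R1881, a ratio of 1.73 whose interval, 0.825 to 3.81, includes 1. UAP1, which makes UDP-N-acetylglucosamine, had no TRIM24 site with ethanol and 2 with R1881, of 17.1 in an intron at chr1:162538687-162538843 and 9.3 at its start. ELOVL5, a fatty acid elongase, had 2 intronic sites with R1881 only (14.0 and 7.0), and SORD, sorbitol dehydrogenase, had one of 14.7 at 34.9 kb upstream and one of 7.8 at an alternative start 14.1 kb inside the gene. ALDH1A3 (retinaldehyde dehydrogenase, 12.4 at an alternative start 18.1 kb from the canonical one), ACSL3 (acyl-CoA synthetase, 8.5), B4GALT1 (galactosyltransferase, 10.1 and 9.3) and GPD1L (a glycerol phosphate dehydrogenase homologue, 9.3) each had TRIM24 sites with R1881 and none with ethanol. HPGD, which degrades prostaglandins, had no TRIM24 site with either treatment.

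Within the signalling and scaffold proteins (10 genes), 3 had TRIM24 in the promoter or body with ethanol and 7 with R1881. PMEPA1, an inhibitor of TGF-β signalling, had a single TRIM24 site, with R1881, of 19.4 normalized tags (12.6 to 28.6) at chr20:56332901-56333057, 47.9 kb upstream of the canonical start. IQGAP2, a GTPase scaffold, had intronic sites of 15.5 and 9.3 with R1881, at places where ethanol had none, and other sites of 8.6 and 9.5 with ethanol only. NDRG1, a stress-induced differentiation gene, had a promoter site of 9.5 with ethanol that was not listed with R1881, and with R1881 a site of 16.3 (10.1 to 24.9) 29.8 kb upstream. A further TRIM24 site, downstream, had 10.3 and 7.8 (ratio 0.751, 0.291 to 1.90). TPD52, a vesicle trafficking protein, had 5 TRIM24 sites with R1881 (6.2 to 12.4) and none with ethanol. HOMER2, a scaffold of glutamate receptors, had promoter sites with both treatments, with R1881 at the canonical start and with ethanol at one 33.4 kb upstream of it. TNFAIP8 (an apoptosis regulator) had 2 sites with R1881 only, and LIFR (the receptor of leukaemia inhibitory factor, 10.9), INPP4B (a phosphoinositide phosphatase, 9.3) and PTPN21 (a tyrosine phosphatase, 7.8 and 7.0) had sites with R1881 only. AKAP12, an anchor of protein kinase A, had a TRIM24 site of 11.2 with ethanol only, in the flank, at the promoter of another gene.

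Of the transcription and elongation factors (7 genes), 2 had TRIM24 in the promoter or body with ethanol and 4 with R1881. ELK4, an ETS factor, had a site at its start with both treatments, of 8.6 with ethanol and 7.0 with R1881 (ratio 0.811, 0.292 to 2.22). A second ELK4 promoter site, of 10.3 and 306 bp inside the canonical start, was listed with ethanol only. SPDEF, an ETS factor of prostate epithelium, had a site of 8.6 at its start with ethanol only, and a downstream site of 11.2 with ethanol and 7.0 with R1881 (ratio 0.624, 0.235 to 1.58). ELL2, an elongation factor, had the strongest TRIM24 site near the 49 genes with ethanol, 22.4 normalized tags (26 tags, 14.6 to 32.8) 46.0 kb upstream, which was not listed with R1881, and 3 other sites with R1881 only (7.8 to 10.9). ARID5B had 1 intronic site with R1881 (7.8), TSC22D1 1 promoter site (7.8) and ZBTB10 1 downstream site (11.6), none of them with ethanol. MAF had none with either.

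Of the cytoskeleton proteins, MAP7 (a microtubule-associated protein, 11.6 at its start), PDLIM5 (an actin-associated protein, 11.6, 11.6 and 12.4) and KRT8 (keratin 8, 7.0 at an alternative start) had TRIM24 sites with R1881 and none with ethanol. Of the 2 cell cycle proteins, CCND3, cyclin D3, had a site of 12.9 at an alternative start 109 kb upstream of the canonical one, also the start of another gene, with ethanol and none with R1881, and CENPN, a centromere protein, had 1 site in the flank with each treatment. The polyamine enzymes SAT1 and SMS had no TRIM24 site with either treatment. SMS had no TRIM28 site with ethanol and 1 with R1881, and SAT1 had 2 with ethanol and none with R1881.

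The 17 genes whose promoter had TRIM24 with R1881 only mostly had TRIM28 at the promoter with ethanol too. TRIM28 was listed there with ethanol in 14 of the 17 (82.4%), all except CAMKK2, STK39 and ADAMTS1, and with R1881 in 13 (76.5%), all except SLC45A3, KRT8, ABCC4 and STK39. Among all 2530 genes of that kind the shares were 91.0% and 67.8%. At the level of sites the overlap was lower. Of the 83 TRIM24 sites near the 49 genes found with R1881 only, 27 overlapped a TRIM28 site of both treatments, 16 one of ethanol only and 4 one of R1881 only, and 36 overlapped none. The 4 of R1881 only made 4.82% (1.89 to 11.8) of these sites, whereas 15.6% of all TRIM24 sites found with R1881 only overlapped a TRIM28 site of R1881 only.

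**Figure D4:**
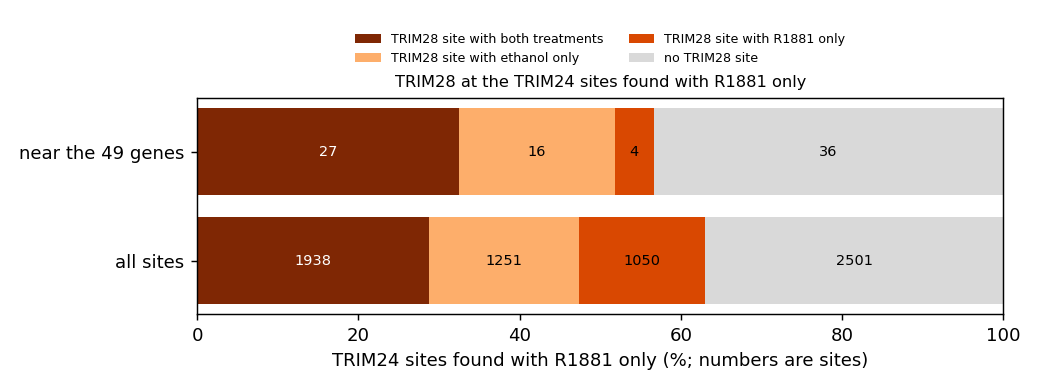
TRIM24 sites found with R1881 only, near the 49 genes (83 sites) and in the whole list (6740 sites), split by whether a TRIM28 site overlapped them with both treatments, with ethanol only, with R1881 only or not at all. The x axis is the share of sites in % and the numbers on the bars are sites, and the class with TRIM28 with R1881 only is the smallest near the 49 genes (4 sites).

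With matched treatments, 38 of the 91 TRIM24 sites with R1881 overlapped a TRIM28 site (41.8%, 32.2 to 52.0) and 11 of the 26 with ethanol did (42.3%, 25.5 to 61.1). Over the whole lists the shares were 50.4% and 64.3%. Counted from the other side, 15.0% of the TRIM28 sites near the 49 genes overlapped TRIM24 with R1881 and 2.88% with ethanol, against 13.3% and 5.58% of all TRIM28 sites. TRIM24 sites that overlapped TRIM28 with R1881 had the same median strength as those that did not (9.3 normalized tags in both), while in the whole list the medians were 10.1 and 8.5.

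Sites listed with both treatments allow a comparison of strength. Only 8 TRIM24 sites near the 49 genes were of this kind, with a median R1881 to ethanol ratio of 0.877 (range 0.624 to 1.73) beside 0.983 for all 2352 such sites. None passed the call of at least 1.5 fold with an interval leaving out 1, in either direction, where 9.74% of all such sites were called higher and 1.62% lower. These 8 sites count equally with both treatments. The larger TRIM24 count near these genes with R1881 therefore lies, by construction, in the sites listed with 1 treatment only (83 with R1881, 18 with ethanol). TRIM28 had 141 such sites, with a median ratio of 1.18 beside 1.06 for all 21466, and 6 were called higher with R1881 and 0 lower, where 1.99% of all were called higher and 0.936% lower. When the ratios were centred on the median of all matched sites, 4 of the 6 were called, and the sites in UAP1 (lower limit 0.997) and ALDH1A3 (0.986) were not. Because the weakest listed site of the R1881 list was the stronger one in normalized tags, the weakest ethanol sites could be matched only by R1881 sites at least as strong, so their ratios were not free to fall below 1.

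The 6 TRIM28 sites called higher all lay inside genes. They were in SLC26A2 (4.4 with ethanol and 14.1 with R1881, ratio 3.21, 1.47 to 7.42), STK39 (the site with the response element, given above), ARID5B (4.8 and 12.6, ratio 2.65, 1.21 to 6.03), IQGAP2 (6.8 and 17.6, ratio 2.60, 1.35 to 5.13), ALDH1A3 (4.8 and 11.2, ratio 2.36, 1.05 to 5.46) and UAP1 (7.6 and 15.5, ratio 2.05, 1.06 to 4.0). At STK39 and IQGAP2 the site overlapped a TRIM24 site listed with R1881 only, of 9.3 normalized tags at both. The other 4 overlapped no TRIM24 site. The strongest TRIM28 sites near the 49 genes were present with both treatments at similar strength: 22.7 and 29.5 normalized tags 28.7 kb upstream of AKAP12 (ratio 1.30, 0.853 to 1.97), 26.6 and 25.3 upstream of ABHD2 (0.949, 0.615 to 1.44), and 22.7 and 19.0 upstream of GPD1L (0.837, 0.509 to 1.35). No TRIM24 site overlapped any of the 3. The next strongest with R1881 that were not called were at STK39 (14.3 and 17.6), SPDEF (20.3 and 16.9), SLC26A2 (10.3 and 14.8), CAMKK2 (11.1 and 14.8) and B4GALT1 (15.5 and 14.8).

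**Figure D5:**
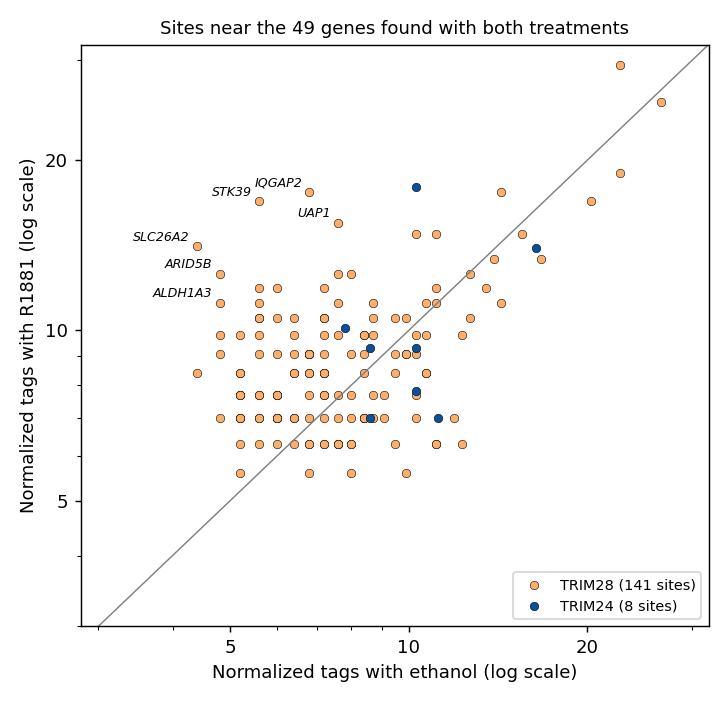
Normalized tags with ethanol (x axis) and R1881 (y axis), both on log scales, of sites near the 49 genes that were listed with both treatments, 141 for TRIM28 and 8 for TRIM24. The line marks equal values, and the 6 named TRIM28 sites, with ratios of 2.05 to 3.21, are those called higher with R1881 (4 of them also after centring on the median of all matched sites).

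A second list of 46 androgen-responsive genes was counted in the same way. TRIM24 was in the promoter or body of 7 of the 46 with ethanol (15.2%) and 16 with R1881 (34.8%). Of all genes 14.6% and 25.3% had such a site, and 8 and 33 of the 49 genes did. At promoters TRIM24 was found for 1 and 9 of the 46, against 10.6% and 18.4% of all genes. Within 50 kb it was found for 13 and 25, against 33.4% and 50.4%. TRIM28 was in the promoter or body of 42 and 34 of the 46 (91.3% and 73.9%), against 68.3% and 52.1%. Whether the lists differ was not tested.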

How the data were processed

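Per the file headers and the labels, the authors aligned single ChIP-seq libraries to hg19 with BWA 0.6.1 and called sites with HOMER 4.1 at a false discovery rate of 0.001, at least 4 fold over the surrounding 10 kb and a Poisson p-value of 1.00e-04, with no input library in the command and at most 1 tag per base. The deposited columns used were the normalized tag count (a signal per 10000000 tags), the fold ratio over the local region, the HOMER score and the local p-value, the last 2 only read, not used. Normalized values below 100 gave whole tags for 100% of sites (within 0.05). Sites on chromosomes 1 to 22, X and Y were placed by their centre against GENCODE release 44 lifted to GRCh37. Sites overlapping by 1 bp were matched. Intervals were Wilson (shares), exact Poisson (tags) and exact conditional binomial (ratios), from scipy 1.17.1, and the code was tested on simulated data. Genes were named by a fixed rule: FKBP5, TMPRSS2, SLC45A3, NDRG1, STEAP4 and STEAP2, those with a TRIM24 promoter site with R1881, those of the 10 strongest sites of each protein, and those with a response element or a called ratio. The rest are given so that all 49 are accounted for, and the FKBP5 sequence was chosen after its value was seen. The genes and lists were chosen with earlier results of these data known. Results were recomputed under 15 alternative settings and 1 more chosen after seeing the data. A further list of coregulator genes is not reported here.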

Additional observations from a re-analysis of the deposited data

Results flagged for a closer look

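The change in the number of sites near the 49 genes went in opposite directions for the 2 proteins. On the log2 scale, site number with R1881 over that with ethanol was 1.807 for TRIM24 (91 against 26 sites) and -0.594 for TRIM28 (253 against 382), beside 0.855 and -0.755 over the whole lists. The difference between the proteins was not tested, since each rests on 1 library per treatment. The libraries differed in depth, and among sites of at least 8 normalized tags the values were 1.437 for TRIM24 and 0.175 for TRIM28, both positive, beside 0.527 and -0.147 over the whole lists.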

How the results depend on the processing

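Of 126 recomputed values, 97 stayed within 1.5 times the reported count or inside its interval, and all 16 from placing sites by overlap of 1 bp did. TRIM24 kept more genes and more sites with R1881 than with ethanol under every alternative tried on those counts. With protein-coding transcripts only, TRIM24 with ethanol was at 4 promoters. With canonical starts only, chosen after seeing the data, the promoter counts were 3 and 13 for TRIM24 and 23 for TRIM28 with R1881. With a flank of 10 kb, 9 genes and 13 sites were counted for TRIM24 with ethanol, and 248 and 156 sites for TRIM28 with ethanol and R1881. With sites of at least 8 normalized tags, TRIM28 was at 20 promoters and 28 promoters or bodies with ethanol and at 16 and 29 with R1881, its sites numbered 101 and 114, and 63 were found with ethanol only. No share of all genes is given at that cut-off. When centres within 500 bp counted as shared, 54.9% of TRIM24 sites with R1881 and 65.4% with ethanol shared a TRIM28 site, and within 100 bp the ethanol share was 23.1%. By the fold over the local region, for which no interval can be had, 3 matched TRIM24 sites were lower, and 30 TRIM28 sites were higher and 4 lower. With 1 further mismatch, response element matches were in 9.89% of TRIM24 sites with R1881 and in 5.24% and 7.11% of TRIM28 sites with ethanol and R1881, and forkhead matches in 11.0%, 8.90% and 10.7%. Over the whole lists these were 6.09%, 3.40% and 4.49%, and 10.8%, 9.58% and 11.1%. Within 100 bp, 0.524% of TRIM28 sites with ethanol held a forkhead match and 0.791% with R1881 a response element. The cause of these shifts was not tested beyond what each setting does by construction. No paired analysis was possible because each condition had 1 sample. With 1 library per condition, replicates could not be left out, and a site of 9 tags has a Poisson interval of 3.19 to 13.3 normalized tags, so a site listed with 1 treatment may lie just under the listing threshold with the other.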
